A study of Homo sapiens with 5 samples.

Results

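Iron enters erythroid cells on transferrin, is stored in ferritin and is freed from haem by haem oxygenase, and genes of these steps were read here in the human erythroleukaemia cell line TF-1. The rule named 9 genes and took every probe set (the group of oligonucleotides that reads a transcript) whose single gene symbol in the array maker's annotation was one of them. It found 15 probe sets for 7 of the 9 genes, TFRC, SLC11A2, SLC25A37, FTL, HMOX1, HEPH and ACO1, out of 11963 genes read by 19065 probe sets in the series. FTH1, the ferritin heavy chain, and IREB2, iron regulatory protein 2, had no such probe set in the annotation used, and their values are not analysed here.

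The study set TF-1 cells carrying the empty retroviral vector MSCV-GFP (vector cells) beside cells carrying MSCV-DbSCL, which expresses an SCL mutant defective in DNA binding (DbSCL cells). SCL, the product of TAL1, is a basic helix-loop-helix factor. After a night without growth factor, vector cells received GM-CSF at 5 ng/mL, Steel factor (SF, which binds c-Kit) at 20 ng/mL or erythropoietin (Epo), and DbSCL cells received SF or Epo, each for 6 h. The labels give no dose for Epo and do not say whether a population came from 1 clone. There was 1 array for each of the 5 groups and none for cells left without cytokine, so the groups have no replicates; no test was run and no p-value is given. In RNA from whole cultures, a change in every cell and a change in some cells cannot be told apart.

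Cells take up iron bound to transferrin through the transferrin receptor, and the divalent metal transporter moves it out of the endosome. Mitoferrin carries it into mitochondria, where haem and iron-sulphur clusters are made, and ferritin stores the rest. Iron regulatory proteins bind a hairpin, the iron-responsive element, in several of these transcripts. When iron is scarce they block translation of ferritin and protect the transferrin receptor transcript from decay, so part of this control does not appear in transcript levels.

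The hairpin is shown for FTL because it lies within the RefSeq sequence at hand (build GRCh38.p14), with that of ALAS2, the erythroid enzyme that starts haem synthesis, for comparison. Capitals mark the bulged C and the loop.
FTL: gtctcttgCttcaaCAGTGTttggac
ALAS2: cattcgttCgtcctCAGTGCagggca
The FTL stretch is chr19:48965333-48965358 on the plus strand, bases 25 to 50 of the transcript, and the ALAS2 stretch is chrX:55030946-55030971 on the minus strand, bases 7 to 32. The pattern searched was CNNNNNCAGTGN on the transcribed strand in the first 50 bases, and 1.67% of all 35116 RefSeq windows held it. A match of letters does not show that a protein binds there.

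All values below are log2 signals as deposited, so a difference of 1 is 2-fold. Signals under 4.45, the 40th percentile of all values, counted as low (the floor), and all 7 genes were above it on every array in at least 1 probe set. Being above the floor does not show that a gene is expressed, since 3 of 3 T cell markers were above it on all arrays too. The 7 erythroid progenitor markers on the array, among them GATA1, KLF1 and KIT, were above it on all 5 arrays, and 0 of 3 epithelial markers were above it on any. With no replicates, the spread of a single difference was estimated from genes of like signal, as the DbSCL difference under SF against that under Epo. It ran from 0.13 to 0.24, and it includes any real interaction. Equal values on at least 2 arrays, found in 58.4% of all probe sets, can lower this spread. The vector GM-CSF array does not enter it, so it does not measure the scatter of differences from GM-CSF. Over all genes the median size of those differences was 0.20 for SF and 0.24 for Epo. For DbSCL against vector it was 0.14 under SF and 0.11 under Epo. The arrays differed in controls, most in 18S rRNA, which ran from 7.45 (vector Epo) to 9.02 (vector GM-CSF). The hybridization controls, added in equal amounts by design of the assay, ran from 9.58 (vector Epo) to 10.57 (DbSCL SF), and the 3′ minus 5′ signal of ACTB, a sign of RNA integrity, from 1.89 (vector SF) to 3.33 (DbSCL SF).

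TFRC, the transferrin receptor, had high signals in both probe sets on every array. In the brighter probe set (208691_at) it read 12.58 in vector cells with GM-CSF, 12.54 with SF and 12.39 with Epo, and 12.50 and 12.31 in DbSCL cells with SF and Epo. These 5 values spanned 0.27, close to the spread of a single difference at this signal, 0.24. The second probe set (207332_s_at) read 11.96, 12.31, 12.57, 12.46 and 12.23 in the same order, a range of 0.60. It was lowest under GM-CSF and highest under Epo in vector cells, a difference of 0.60, while the brighter probe set gave −0.19 for the same pair. The probe sets thus opposed each other for Epo against GM-CSF. For SF against GM-CSF they gave 0.34 and −0.03. The median difference over genes in the highest of 10 bins of signal, to which TFRC belongs, was 0.30 for Epo and 0.23 for SF. The DbSCL difference was −0.05 under SF and −0.08 under Epo in the brighter probe set, and 0.15 and −0.33 in the second.

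The stretch before the TFRC start is shown because it is the promoter of the gene with the highest signals here. It is chr3:196082091-196082210 on the minus strand (GRCh38.p14), the 120 bases before the start, and capitals mark TGACGCA, a sequence like those bound by CREB and AP-1 factors.
TFRC: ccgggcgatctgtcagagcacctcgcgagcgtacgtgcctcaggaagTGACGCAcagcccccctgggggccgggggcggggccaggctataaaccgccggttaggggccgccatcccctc
On either strand, TGACGCA was in 2.09% of all RefSeq windows of 250 bases before a start, and in 1 of the 12 windows of the 6 iron genes that the table held.

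SLC11A2, the divalent metal transporter DMT1, was read by 4 probe sets that disagreed. The brightest (203123_s_at) gave 5.82 or 5.84 on all 5 arrays, with the same value on the 3 vector arrays. A second (203125_x_at) read 5.93 with GM-CSF, 5.82 with SF and 5.86 with Epo in vector cells, and 5.48 under SF and 5.80 under Epo in DbSCL cells, being lowest on the DbSCL SF array. The third (203124_s_at) read 4.86, 5.46, 5.51, 5.13 and 5.39 in vector GM-CSF, vector SF, vector Epo, DbSCL SF and DbSCL Epo cells. It was lowest under GM-CSF, with differences of 0.60 for SF and 0.65 for Epo, where the brightest gave 0.00 for both. Under SF the DbSCL array was lower in the second and the third probe set (−0.35 and −0.33) and not in the brightest (0.01). The fourth (210047_at) was below the floor on all 5 arrays.

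SLC25A37, mitoferrin 1, which brings iron into the mitochondria of erythroid cells, lay close to the floor. Its brightest probe set (218136_s_at) read 5.11 under GM-CSF and 4.88 under both SF and Epo in vector cells, and 5.09 and 4.81 in DbSCL cells with SF and Epo. The second (221920_s_at) ran from 4.69 to 4.98 and the third (218978_s_at) from 4.60 to 4.71. For SF against GM-CSF in vector cells the 3 probe sets gave −0.22, 0.21 and 0.00, so no direction was shared. The largest DbSCL difference of the 3 was 0.21, under SF, against a spread of 0.16.

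FTL, the ferritin light chain, was bright in both of its probe sets. Both carry the array maker's mark for probes that can also bind related sequences, and FTL has processed pseudogenes, so copies cannot be told apart in these signals. The brighter (212788_x_at) read 11.33 with GM-CSF, 11.44 with SF and 11.59 with Epo in vector cells, and 11.57 and 11.44 in DbSCL cells with SF and Epo, a range of 0.26. The dimmer (213187_x_at) read 8.67, 9.35, 9.44, 9.35 and 8.77 in the same order, a range of 0.77. In the dimmer probe set vector GM-CSF and DbSCL Epo were low and the other 3 arrays were high. Both probe sets were higher under Epo than under GM-CSF in vector cells, by 0.26 and 0.77, beside a median of 0.30 for genes of like signal. Under Epo both were lower in DbSCL cells in the deposited values, by 0.14 and 0.67, against a spread of 0.24 and a median of −0.11 for genes of like signal. The difference of the brighter probe set lay within the spread. It became 0.03 after quantile normalization and −0.02 after loess. Under SF the DbSCL differences were 0.13 and −0.00.

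HMOX1, haem oxygenase 1, which breaks down haem and releases its iron, was read by 1 probe set (203665_at). It was 5.36 with GM-CSF, 5.00 with SF and 4.85 with Epo in vector cells, and 5.07 and 5.17 in DbSCL cells with SF and Epo. The GM-CSF array was the highest and the vector Epo array the lowest. The differences from GM-CSF were −0.36 for SF and −0.51 for Epo, beside medians of −0.13 and −0.14 for genes of like signal. The spread at this signal, 0.16, was estimated without the GM-CSF array and does not measure the scatter of these differences. Weak genes as a whole were thus slightly lower under SF and Epo, and HMOX1 lay further below. With DbSCL it was 0.07 higher under SF and 0.32 higher under Epo.

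ACO1 encodes iron regulatory protein 1, which binds the iron-responsive element when it lacks its iron-sulphur cluster and otherwise works as an aconitase. Its probe set (207071_s_at) read 5.70 with GM-CSF, 6.26 with SF and 6.49 with Epo in vector cells, and 5.88 and 6.05 in DbSCL cells with SF and Epo. The GM-CSF array was lowest, and each DbSCL array lay below the vector array of its cytokine. Epo exceeded GM-CSF by 0.79 (1.73-fold) and SF did so by 0.56 (1.47-fold), where genes of like signal had medians of −0.03 and −0.02. With DbSCL the signal was lower by similar amounts under both cytokines, −0.37 under SF and −0.44 under Epo, against a spread of 0.18. The 2 differences rest on separate pairs of arrays and were 0.07 apart.

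HEPH encodes hephaestin, a copper-containing ferroxidase that oxidises iron as it leaves the cell and is best known in the gut. It was the 1 gene of the 7 that passed 2-fold, and it did so in 1 comparison, DbSCL against vector under SF. Its probe set above the floor (203903_s_at) read 5.36 with GM-CSF, 5.97 with SF and 6.00 with Epo in vector cells, and 4.78 and 5.46 in DbSCL cells with SF and Epo. The DbSCL SF array was the lowest, and the vector SF and Epo arrays were high and within 0.03 of each other. The DbSCL difference was −1.19 under SF (2.28-fold lower) and −0.54 under Epo (1.45-fold lower), against a spread of 0.17. Of 8450 genes compared under SF, 0.343% were 2-fold or more lower. Within DbSCL cells SF was 0.68 below Epo. Against GM-CSF, vector cells were higher by 0.62 under SF and 0.65 under Epo.

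The HEPH call rests on 1 weak probe set. The other (203902_at) was below the floor on all 5 arrays, from 2.52 to 2.88, and was also lowest on DbSCL SF. Averaging the probe sets takes HEPH below the floor, and with the floor at the 60th percentile of all values the difference under SF became −0.55. The array controls moved between the same arrays: the 3′ minus 5′ signal was 1.89 on vector SF and 3.33 on DbSCL SF for ACTB, and 1.58 and 2.53 for GAPDH. The hybridization controls read 10.02 and 10.57 on these arrays. Their part in the HEPH difference was not tested.

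The 3 genes outside the iron set that followed HEPH most closely over the 5 arrays were sought among 7917 others above the floor on all arrays. Likeness was the root mean square difference of the 5 values after each gene was centred on its own mean. NSL1, a kinetochore gene, differed from HEPH by 0.07 on this measure. NSMAF, which encodes a factor linked to neutral sphingomyelinase, also differed by 0.07, as did TSNAX, which encodes the partner of translin. Their DbSCL differences were −1.02, −1.17 and −1.0 under SF and −0.60, −0.51 and −0.47 under Epo. The 3 were chosen for their likeness on these same arrays, so their match to HEPH, also in the DbSCL differences, follows from the choice. It shows only that a profile like that of HEPH occurred outside the iron set, as in the plot of centred signals.

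**Figure D1:**
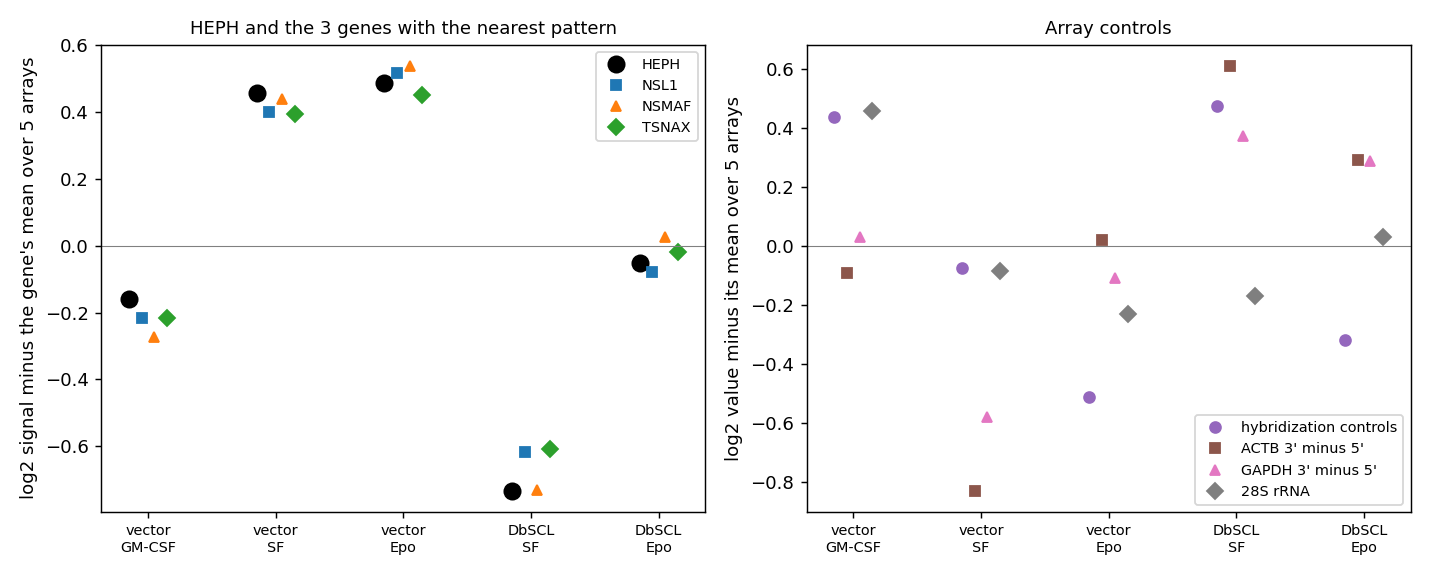
Left, log2 signal minus the gene's own mean over the 5 arrays for HEPH and the 3 genes nearest to it; right, the same for 4 array controls (28S rRNA and the hybridization controls are mean log2 signals, ACTB and GAPDH are the 3′ minus 5′ difference). The DbSCL SF array is lowest for HEPH and for the 3 genes, which were chosen for their likeness to it. The same array is highest for the ACTB and GAPDH 3′ minus 5′ signals and the hybridization controls.

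A HEPH promoter window is shown because it held an E-box followed by GATA, a paired site of the kind at which SCL acts with GATA factors. RefSeq gave 3 starts for HEPH, and only the window of the first held the pair. Which of the starts TF-1 cells use was not measured. The 250 bases before the first are chrX:66162421-66162670 on the plus strand (GRCh38.p14), with an E-box and a GATA sequence in capitals.
HEPH: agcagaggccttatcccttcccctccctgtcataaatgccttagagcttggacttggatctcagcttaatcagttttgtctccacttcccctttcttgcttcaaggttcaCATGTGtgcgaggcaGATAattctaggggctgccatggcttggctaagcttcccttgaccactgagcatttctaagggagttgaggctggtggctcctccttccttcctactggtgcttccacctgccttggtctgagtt
The pair lies at chrX:66162531-66162549 and has 9 bases between its parts. CANNTGNNNNNNNNNGATA, on either strand, was in 0.37% of the 35116 RefSeq windows, and with 8 to 10 bases between the parts the share was 1.01%. Of the 12 windows of iron genes, 1 held it. The E-box alone, CANNTG, was in 6 of the 12 and in 61.8% of all windows, and GATAA on either strand was in 4 of the 12 and in 20.4%. The pair was searched after the HEPH sequence and values had been seen. It is a match of letters, and binding was not measured.

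**Figure D2:**
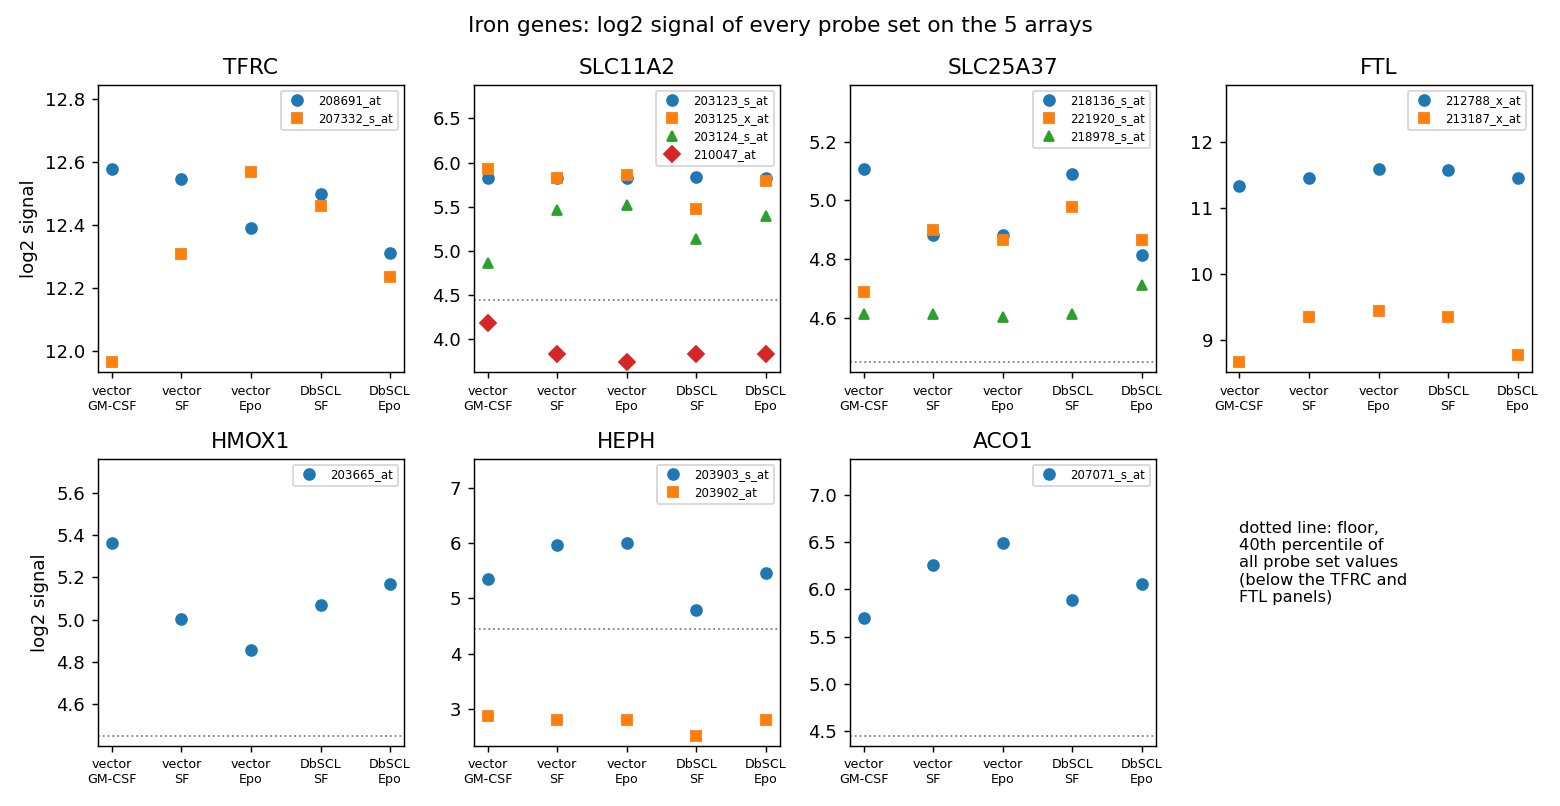
Log2 signal of each probe set of the 7 genes on the 5 arrays, 1 panel per gene with its own axis; each point is 1 array and the dotted line is the floor of 4.45, drawn where the panel reaches it. TFRC and FTL sit far above the floor on all arrays, and HEPH (203903_s_at) drops to 4.78 on the DbSCL SF array.

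Between cytokines no iron gene differed by 2-fold. Against GM-CSF in vector cells 0 of 7 genes passed 2-fold under SF, where 0.596% of all genes did, and 0 of 7 under Epo, where 3.58% did. At 1.5-fold HEPH was higher under SF, 1 of 7 where 6.90% of all genes were, and HEPH and ACO1 were higher under Epo, 2 of 7 where 13.2% were. Counted by probe set, 3 of 13 above the floor were 1.5-fold or more higher under SF (7.06% of all probe sets) and 5 of 13 under Epo (12.8% of all). The 3 were those of HEPH, the dimmer FTL and the weaker SLC11A2 probe set, joined under Epo by ACO1 and the second TFRC probe set. In the highest bin of signal, where TFRC and FTL lie, 26.5% of genes were 1.5-fold or more higher with Epo. Both comparisons use the vector GM-CSF array, whose hybridization controls (10.53) were above those of the vector SF (10.02) and Epo (9.58) arrays. In the same order the 18S rRNA probe sets read 9.02, 8.22 and 7.45, and those of 28S rRNA 8.97, 8.43 and 8.28. The part of these controls was not tested. The median difference of the 7 genes was 0.00 for both, and so was that of all genes.

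SF and Epo gave close values in vector cells. None of the 7 genes passed 1.5-fold between them, where 1.5% of all genes did, and the sizes ran from 0.00 (SLC11A2 and SLC25A37) to 0.24 (ACO1). In DbSCL cells HEPH alone of the 7 passed 1.5-fold, being lower under SF, where 2.80% of all genes were. The dimmer FTL probe set fell just short of 1.5-fold there, at 0.57.

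With DbSCL under Epo, 0 of 7 genes passed 2-fold, where 0.371% of all genes did. Of the 7, 6 lay below 0 in the deposited values and 3 after quantile normalization, with medians of −0.08 and 0.00. Of all genes 46.4% lay below 0, with a median of 0.00. Under SF the median was 0.01, with 3 of 7 below 0, beside 0.00 and 41.6% for all genes. HEPH and ACO1, 2 of the 7, were lower with DbSCL by more than their spread under both cytokines, as were 7.93% of the 7918 genes that exceeded the floor on each of the 5 arrays.

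**Figure D3:**
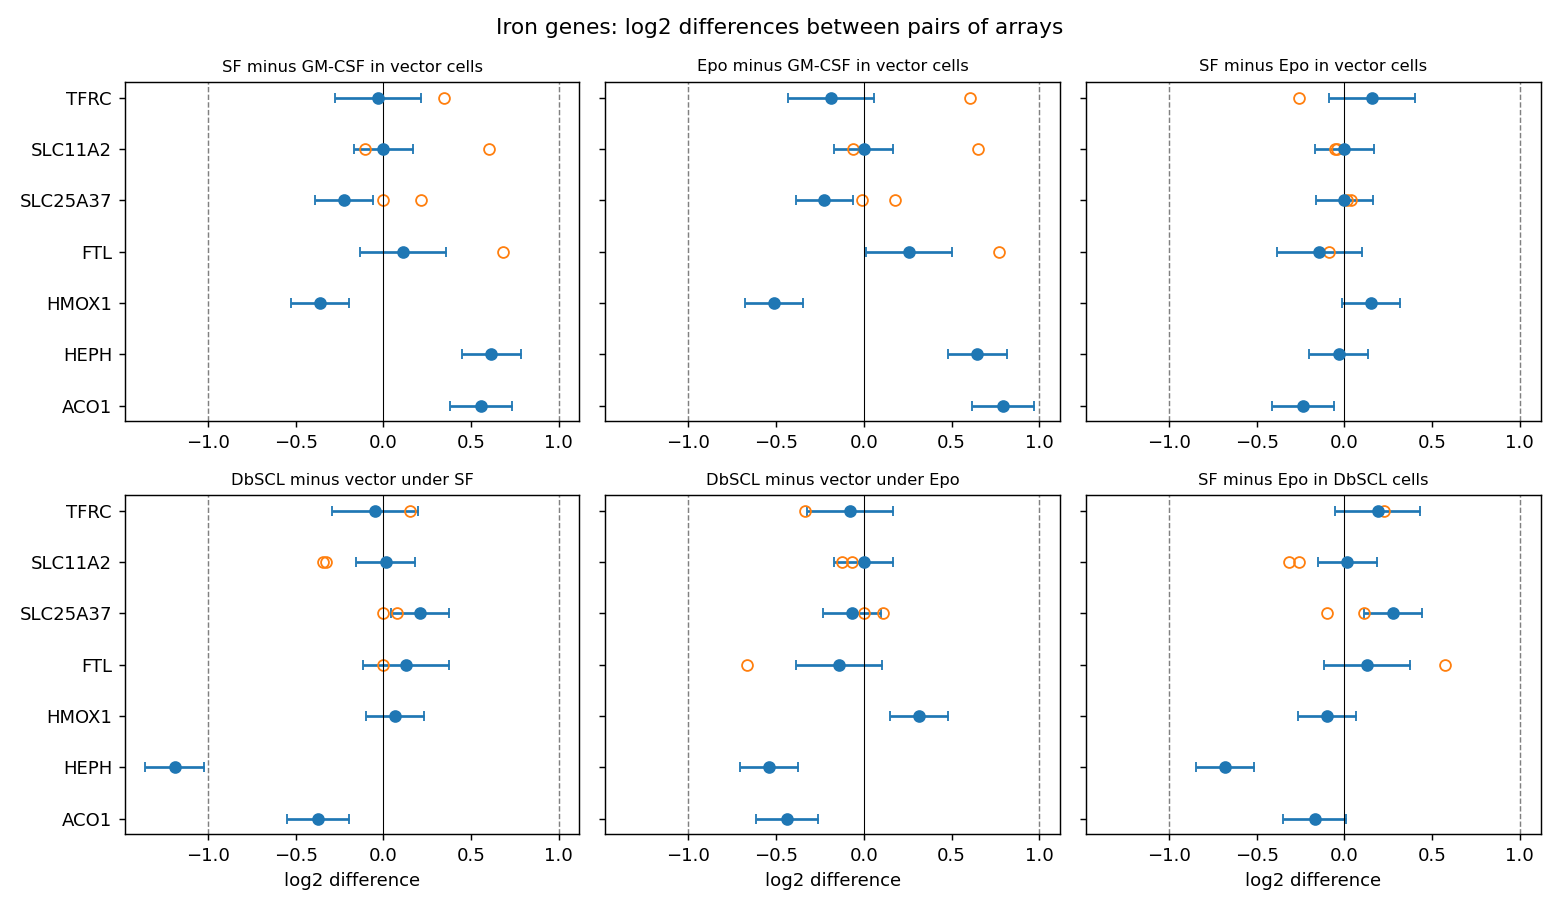
Log2 differences of the 7 genes in the 6 comparisons of 2 arrays each. Filled points are the brightest probe set of a gene with the estimated spread of a single difference as a bar, open circles are its other probe sets above the floor, and dashed lines mark 2-fold. HEPH under SF (−1.19) is the 1 point past them. The bars were estimated without the vector GM-CSF array.

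The rest of the pathway was read through 6 lists of 63 genes, of which 50 were on the array and 45 could be compared under Epo against GM-CSF. In that comparison 2 were 2-fold or more higher and 0 lower, where 3.46% of all genes were higher. NCOA4, the receptor that delivers ferritin to lysosomes, read 8.49 with GM-CSF, 9.08 with SF and 9.56 with Epo in vector cells, and 8.96 and 9.08 in DbSCL cells with SF and Epo. The Epo difference was 1.07, and the DbSCL differences were −0.12 and −0.47. TXNRD1, thioredoxin reductase 1, an antioxidant enzyme, read 8.01, 8.89, 9.50, 8.50 and 8.87 in the same order. It was 1.49 higher under Epo and 0.88 higher under SF than under GM-CSF, and its DbSCL differences were −0.39 and −0.63. Both genes were lowest under GM-CSF and highest in vector cells under Epo.

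The cytosolic iron handling list, which holds the iron chaperones PCBP1 and PCBP2, NCOA4 and the FBXL5 ligase that degrades iron regulatory protein 2, was above 0 in 6 of 6 genes for Epo against GM-CSF. Of all genes 45.3% lay above 0. The list median was 0.51, beside 0.00 for all genes, while genes of like signal to PCBP1, PCBP2, NCOA4 and SKP1 had medians of 0.30 to 0.34. That list median lies between FBXL5 (0.49) and CUL1 (0.53), for which genes of like signal had −0.12 and −0.10. FBXL5 read 3.47 with GM-CSF, below the floor, so its difference was taken from the floor. After quantile normalization or loess, 5 of the 6 lay above 0. Another probe set of FBXL5 gave −0.17, and the 3 others of PCBP2 ranged over −0.08 to 0.32. With DbSCL under Epo 0 of the 6 genes lay above 0, beside 41.5% of all genes, and 2 after quantile normalization or loess. The list median was −0.46 under Epo and −0.08 under SF, beside −0.10 and −0.05 for genes of like signal and 0.00 for all genes in both. The 3 other PCBP2 probe sets ranged over −0.04 to 0.10 under Epo. PCBP1 was the furthest down at −0.94, from 9.10 in vector to 8.16 in DbSCL cells, while under SF it gave −0.04. Of the 11 genes of mitochondrial iron and iron-sulphur clusters, 4 passed 1.5-fold upward for Epo against GM-CSF, where 13.2% of all genes did. These were ISCU, the assembly scaffold (0.67), its partner LYRM4 (0.84), and NUBP1 (0.61) and CIAPIN1 (0.80), which build clusters in the cytosol. Among genes of like signal, 23.1% (for ISCU), 26.5% (for LYRM4 and CIAPIN1) and 8.85% (for NUBP1) passed the same cut. The list median was 0.36, beside 0.19 for genes of like signal, both in the deposited values. After quantile normalization the list median was 0.27, beside −0.05 for all genes. With DbSCL the list median was 0.00 under SF and −0.13 under Epo, beside −0.04 and −0.05 for genes of like signal.

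The list of oxidative stress partners of HMOX1 had a median of −0.38 with DbSCL under SF, with 1 of 8 genes above 0, beside 46.6% of all genes. Under Epo the median was −0.07, with 2 of 8 above 0, beside 41.5%. Probe sets disagreed for NQO1 and GCLC in this list. Under SF the brightest gave −0.07 for NQO1 and −0.37 for GCLC, and others gave 0.38 and −0.42 for NQO1 and 0.08 for GCLC. The DbSCL SF array had the highest 3′ minus 5′ signals, given above, and their part in this list was not tested. NFE2L2, the factor NRF2 that activates HMOX1 and the ferritin genes, read 7.39 in vector and 6.45 in DbSCL cells under SF, a difference of −0.94. Under Epo its difference was −0.45. GCLM, a subunit of the enzyme that starts glutathione synthesis, gave −0.82 and −0.67. HMOX1 itself gave 0.07 and 0.32. In the transferrin and import list, SLC39A8, a zinc and iron importer, gave −0.71 and −0.69 with DbSCL, while 2 other probe sets ranged over −0.55 to 0.26 (SF) and −0.37 to 0.10 (Epo). That list had medians of 0.00 and −0.03. No gene of the iron and haem release list (5 compared) reached 1.5-fold in its brightest probe set in any of the 6 comparisons. The same held for the list of other transcripts with an iron-responsive element (4 compared). For BLVRA, in the former, another probe set gave 0.64 for Epo against GM-CSF and −0.75 with DbSCL under Epo. Its brightest gave −0.01 and −0.25, and a further one 0.03 and −0.10. For CDC42BPA, in the latter, another probe set gave 0.77 for SF and 0.81 for Epo against GM-CSF. Its brightest gave −0.18 and −0.16, and a further one −0.09 and −0.28. ALAS2, in the same list as CDC42BPA, gave 0.23 with DbSCL under SF and −0.38 under Epo. NFE2L2, GCLM, PCBP1, SLC39A8, ALAS2, BLVRA, CDC42BPA and the 4 cluster genes were named after their values were seen.

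**Figure D4:**
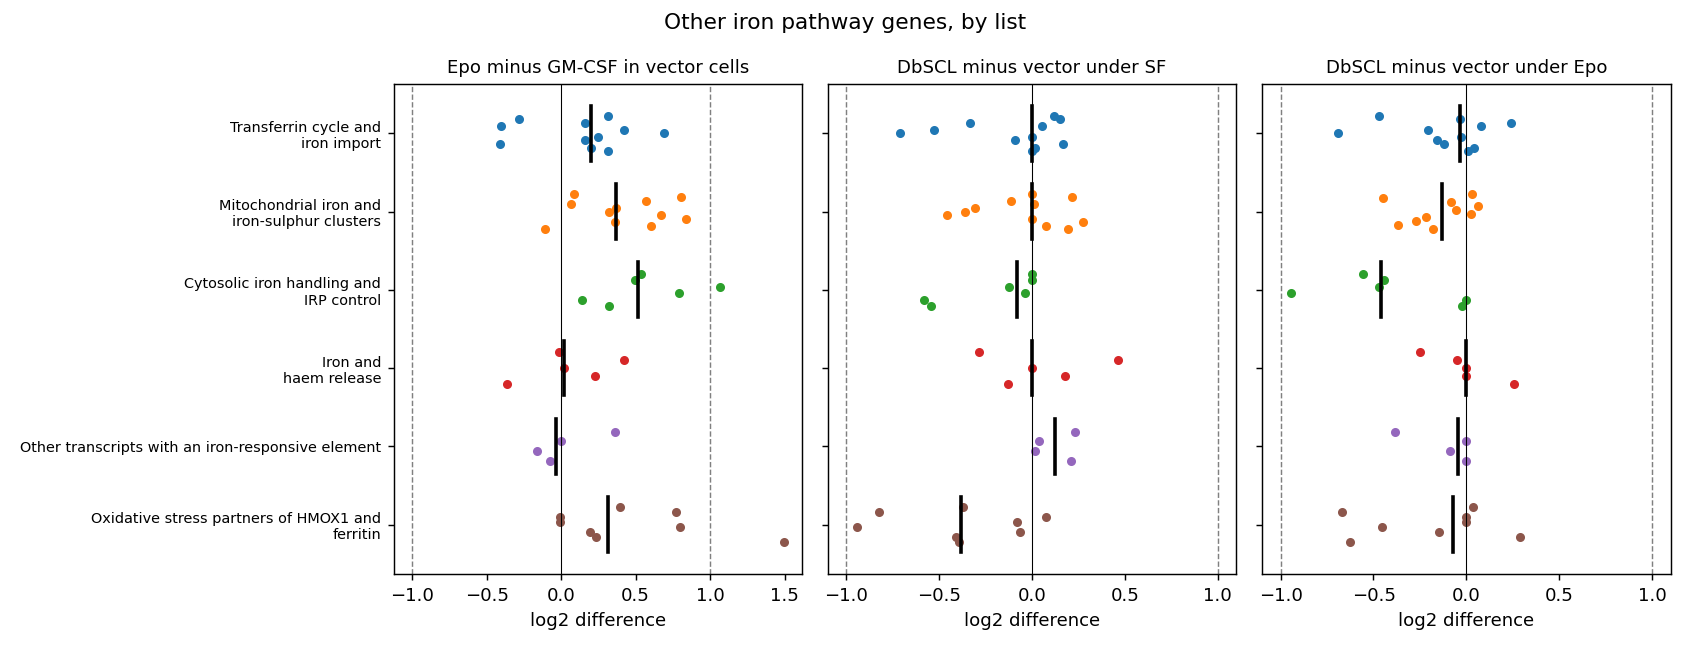
Log2 differences of the other iron pathway genes in 3 comparisons, 1 point per gene, 1 row per list; black bars are list medians and dashed lines mark 2-fold. The cytosolic handling genes lie right of 0 for Epo against GM-CSF (median 0.51) and at or left of 0 for DbSCL under Epo (median −0.46).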

How the data were processed

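Log2 signals of 22283 probe sets on 5 arrays were used as deposited by the authors. The log2 unit was inferred from their range, 2.08 to 13.77. The summary method, the normalization and their software are not given in the sources used here. The same value stood on at least 2 arrays in 58.4% of all probe sets and in 7 of the 15 iron probe sets, so a difference of exactly 0 may come from the summary. Symbols came from the platform annotation; 19059 probe sets matched the RefSeq gene table by identifier, which changed 0 symbols. The probe set with the highest mean stood for a gene. Values below the floor were set to it, and a gene was compared when 1 of the 2 arrays was above it. The spread was a scaled median absolute deviation in 10 bins of signal. With 1 array per group no test was run; an additive fit of cytokine and DbSCL was left out, and the number of arrays limits the precision. The counting was tested on simulated data. Python 3.11.15, numpy 2.4.6, pandas 2.3.3 and statsmodels 0.14.6 were used. Members and lists were chosen with earlier results of these data known. Genes named were the members, list genes past 2-fold, and, for each member with a range of 1 or more, the 3 genes nearest in pattern, with exceptions stated. RefSeq windows ran from 250 bases before to 50 after a start. With windows on chromosome 8 left out for the iron genes, 6 of the 9 genes had a window.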

Additional observations from a re-analysis of the deposited data

How the results depend on the processing

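Alternatives were quantile normalization, median centring, loess, the mean of all probe sets, leaving out probe sets ending in _x_at, no floor, a floor at the 60th percentile and 1.5-fold. HEPH stayed the 1 gene past 2-fold for DbSCL under SF with the 3 normalizations, without _x_at probe sets and with no floor, at −1.19 to −1.24. The last 2 settings repeat the main value by construction, since its probe set is not an _x_at one and lies above the floor. The count became 0 of 6 genes compared with the mean of all probe sets and 0 of 5 with the 60th percentile floor, by construction. At 1.5-fold the counts became 1 for SF against GM-CSF, 2 for Epo against GM-CSF and 1 for SF against Epo in DbSCL cells. Of 270 recomputed differences of single iron genes, 260 moved by no more than the spread and 10 moved further. Of the 260, 42 with no floor and 36 without _x_at probe sets repeat the main values by construction. So do those of HMOX1 and ACO1, read by 1 probe set each, with the mean of all probe sets. With the 60th percentile floor the same holds for TFRC, SLC11A2, FTL and ACO1, which lie above it on every array. Another 42, with median centring, could shift by at most 0.09, less than the smallest spread of 0.13. Reversal was counted only for HEPH under SF, the 1 difference past 2-fold, and it did not reverse. Some smaller differences changed sign, as for TFRC under Epo against GM-CSF, from −0.19 to 0.21 with the mean of probe sets. With the mean of probe sets FTL gave 0.40 for SF and 0.51 for Epo against GM-CSF, and −0.40 for DbSCL under Epo. The labels carry no replicate numbers to block on. DbSCL and vector arrays match by cytokine, and the mean of the SF and Epo differences was −0.86 for HEPH and −0.41 for ACO1.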

Other observations

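Outside the rule, the probe set annotated to FTH1P5, a pseudogene of the ferritin heavy chain (211628_x_at), read 10.16 with GM-CSF, 10.23 with SF and 10.16 with Epo in vector cells, and 9.92 and 10.07 in DbSCL cells with SF and Epo. Its range was 0.31. It was lowest on the DbSCL SF array, and its probes can bind related sequences.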
